A study of Rattus norvegicus with 6 samples.

Results

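To examine how the genes that burn pyruvate and fatty acids in mitochondria behave in the maternal thyroid, a list of 43 genes of the citrate cycle and of fatty acid oxidation was followed in thyroid RNA from late pregnant (LP) and non-pregnant (NP) rats. The genes were chosen by symbol. Of the 43, 39 had a row among the 15388 genes of the count tables, and 38 had enough reads to be tested. Echs1, Eci2, Fabp3 and Pdha1 were not analysed here, and Cpt1b was below the filter on low counts. The samples were thyroid tissue of adult Sprague-Dawley rats, with 3 libraries from NP females and 3 from LP females on day 18 of pregnancy. Days were counted from the day of the vaginal plug. No genotype or agent was named for either group.

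Mitochondria take up pyruvate and fatty acids and break both down to acetyl-CoA, which the citrate cycle oxidizes to feed the respiratory chain. Pyruvate enters through the pyruvate dehydrogenase complex, which is switched off by its kinases. Fatty acids enter as carnitine esters and are shortened in repeated rounds of beta oxidation, whose electrons leave through the electron transfer flavoprotein. These pathways run in nearly every cell, at a high rate in heart, oxidative skeletal muscle and brown fat, and some steps have isoforms that are mainly found in muscle.

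In LP, 30 of the 38 tested genes were higher and 1 was lower, by edgeR's quasi-likelihood test at an adjusted p below 0.05, and 37 of the 38 values were above 0. Among all 11738 genes tested, 12.6% were higher and 8.76% were lower by the same rule, and 48.5% had a value above 0. The median log2 fold change was 0.77 over the 38 genes and -0.0111 over all genes tested. Among the genes that reached the filter on low counts in both groups, the largest change was that of Acadm, the dehydrogenase of medium-chain fatty acids. Ucp3, a mitochondrial carrier of muscle, had a larger value, but it passed the filter only through its LP libraries. The gene that fell was Cpt1a, the carnitine palmitoyltransferase of liver and most other tissues. All tested genes but Ucp3 reached the filter on low counts in both groups, and of these 37 genes 29 were higher and 1 was lower, with a median of 0.76. With a fold above 2 as well, 10 of the genes were called higher, against 4.83% of all genes tested.

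The counts summed to between 2752144 and 3449857 reads per library, so that 3 reads of a library correspond to between 0.87 and 1.09 CPM (counts-per-million). Within each group, replicates 2 and 3 agreed within sampling noise: by the chi-square test over genes the statistic divided by its degrees of freedom was 1.02 in NP (p = 0.111) and 0.995 in LP (p = 0.667), whereas against replicate 1 it lay between 3.70 and 4.11. Replicates 2 and 3 were therefore summed and counted as 1 sample, and means and SDs rest on n = 2 per group. Thyroids came from 3 rats per group by the methods, but no source ties a library to a rat, and the p-values measure the spread between these samples, which may be technical. The 9 markers of thyroid follicular cells summed to between 237000 and 253000 CPM in NP and between 236000 and 250000 CPM in LP, nearly all of it thyroglobulin (Tg). Without Tg, the other 8 summed to between 7830 and 8230 CPM in NP and between 7050 and 7500 CPM in LP. Of the 9, Slc5a5, the iodide transporter, fell by 0.93 on the log2 scale (adjusted p = 2.31e-06) and Tshr, the thyrotropin receptor, fell by 0.68 (adjusted p = 0.000128), whereas Nkx2-1, Duox2 and Duoxa2 rose by 0.30, 0.30 and 0.47. The smooth muscle markers stood apart by replicate. Without Des, which skeletal muscle also expresses and which rose by 3.28 (adjusted p = 0.000466), the other 5 summed to 269 and 197 CPM in replicate 1 of NP and LP and to between 1540 and 1730 CPM in replicates 2 and 3. In replicate 1 alone, 37 of the 38 genes were above 0, with a median log2 fold change of 0.72, and in replicates 2 and 3 alone 37 of the 38 with a median of 0.76.

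Markers of skeletal muscle were far higher in LP as well. The 24 skeletal muscle markers with a row (of 30 listed) summed to between 42.9 and 103 CPM in the NP libraries and to between 6760 and 7080 CPM in the LP libraries, and 19 of the 21 tested were higher. The sarcomere genes Tnnc2 and Neb had between 14 and 30 reads in each NP library and between 3963 and 4641 in each LP library. Some muscle markers did not follow. Acta1, skeletal actin, was at 0 reads in replicate 1 of both groups and at 166 and 144 reads in the other NP libraries against 186 and 185 in the other LP libraries, Pygm had between 0 and 19 reads, and Casq1 and Mybpc2 had at most 4 reads in any library. The 5 markers of heart with a row (of 7 listed) summed to between 5.09 and 10.1 CPM in NP and between 8.7 and 9.86 CPM in LP. Only Tnnt2 was tested and did not pass (0.29, adjusted p = 0.555), and the other 4 had fewer than 10 reads in every LP library. The part of muscle cells in the values below was not tested. In whole tissue, more cells of a type and more RNA per cell cannot be told apart.

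For the genes on which the results turn, the promoter windows are shown, from 250 bases before to 50 bases after the start site as RefSeq gives them for the assembly GRCr8, another build than the rn5 used for the counts. They belong to Acadm (chr2:245542815-245543114, minus strand), to Sucla2 (chr15:55161644-55161943, plus strand) and Suclg2 (chr4:129893888-129894187, minus strand), which encode alternative subunits of the same enzyme, and to Ucp3 (chr1:164227660-164227959, plus strand). Capitals mark the GC box GGGCGG and the E-box CAGCTG of the MyoD type, on either strand.
Acadm: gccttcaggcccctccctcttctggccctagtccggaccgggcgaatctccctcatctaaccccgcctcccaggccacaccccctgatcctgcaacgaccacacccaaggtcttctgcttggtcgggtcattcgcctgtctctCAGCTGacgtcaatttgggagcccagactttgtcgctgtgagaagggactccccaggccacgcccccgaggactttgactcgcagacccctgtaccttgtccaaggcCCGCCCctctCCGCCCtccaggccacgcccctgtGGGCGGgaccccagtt
Sucla2: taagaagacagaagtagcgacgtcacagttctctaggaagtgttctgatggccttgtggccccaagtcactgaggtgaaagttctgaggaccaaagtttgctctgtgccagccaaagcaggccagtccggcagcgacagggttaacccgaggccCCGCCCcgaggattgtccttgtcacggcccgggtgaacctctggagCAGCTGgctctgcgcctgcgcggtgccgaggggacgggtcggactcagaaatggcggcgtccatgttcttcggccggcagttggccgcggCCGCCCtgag
Suclg2: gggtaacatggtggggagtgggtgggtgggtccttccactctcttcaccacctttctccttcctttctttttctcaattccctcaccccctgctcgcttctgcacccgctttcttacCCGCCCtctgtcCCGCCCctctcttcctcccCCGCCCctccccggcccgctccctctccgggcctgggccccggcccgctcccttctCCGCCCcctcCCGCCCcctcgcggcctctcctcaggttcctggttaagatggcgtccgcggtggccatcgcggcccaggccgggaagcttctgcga
Ucp3: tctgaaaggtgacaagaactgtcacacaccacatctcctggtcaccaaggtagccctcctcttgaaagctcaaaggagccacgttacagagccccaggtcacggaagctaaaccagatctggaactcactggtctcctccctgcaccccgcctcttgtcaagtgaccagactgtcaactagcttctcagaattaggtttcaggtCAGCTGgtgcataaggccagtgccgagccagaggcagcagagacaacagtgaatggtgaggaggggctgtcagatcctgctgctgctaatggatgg

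Acadm held 3 GC boxes and Sucla2 2 of them, Suclg2 held 5, and Ucp3 held 0. The E-box was found 1 time each in Acadm, Sucla2 and Ucp3 and 0 times in Suclg2. Of the 39 genes with a row, 34 had a promoter in the RefSeq table, and all 34 were tested. The GC box was present in 21 of these 34 promoters (61.8%), against 33.1% of all 33469 promoters of this length, and the median GC content was 60.7% against 51.7%. The CCAAT box (CCAAT, both strands) was present in 16 (47.1%, against 37.5%) and the E-box in 5 (14.7%, against 15.1%). The element of the estrogen-related receptors (TCAAGGTCA) and the palindromic element of NRF1, searched on both strands, were found in 0 of the 34 windows, and in 0.433% and 0.852% of all promoters. No motif contains the letters of another.

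The plot of fold changes orders the 38 tested genes by role.

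**Figure D1:**
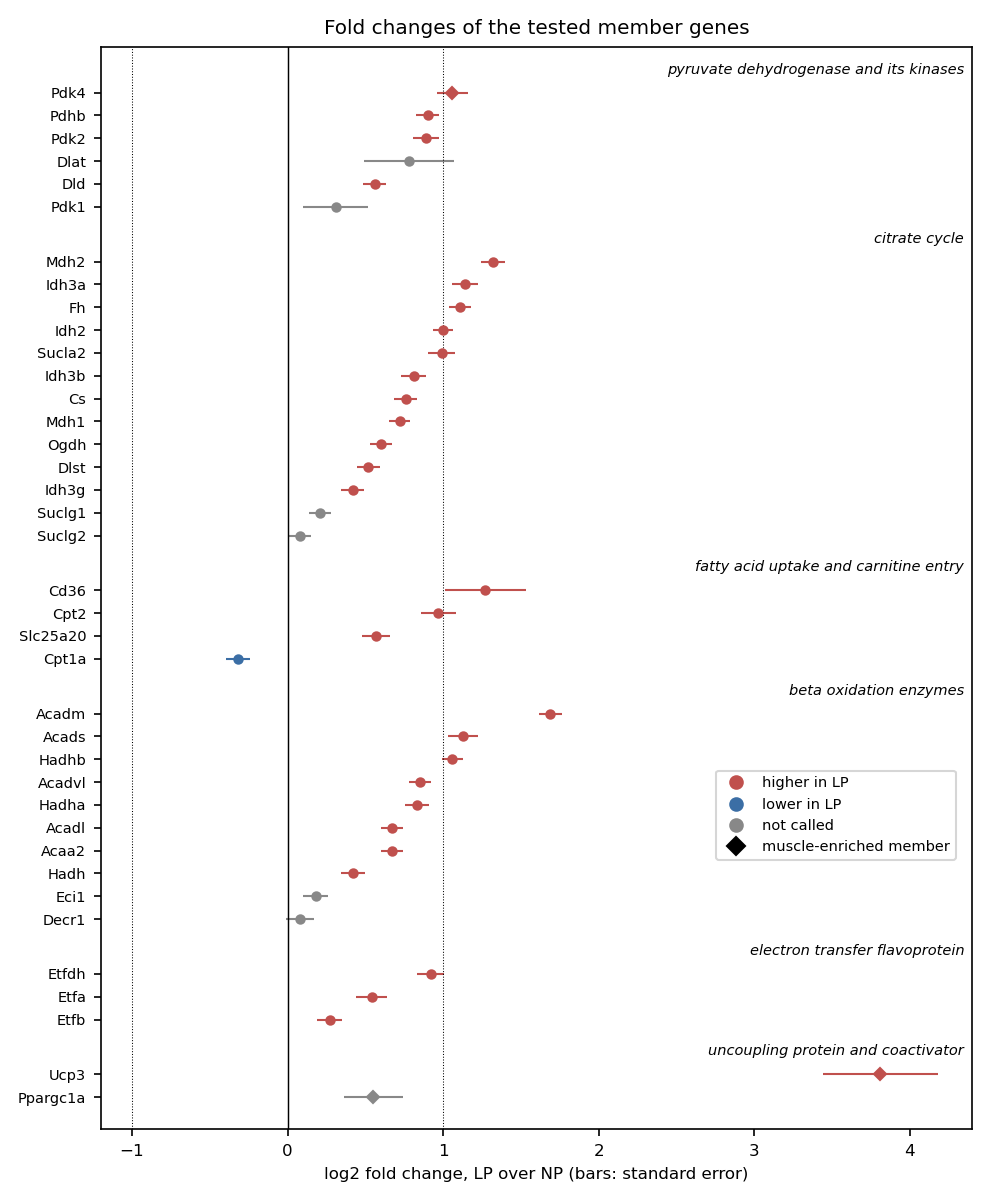
Log2 fold change of LP over NP for the 38 tested genes, grouped by role, with bars of 1 standard error from the edgeR fit; diamonds mark muscle-enriched genes and dotted lines a 2-fold change. All genes but Cpt1a lie above 0, and Ucp3, which passed the filter on low counts only through its LP libraries, lies at 3.81.

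The entry of pyruvate was examined with 6 genes. Pdhb, a subunit of the dehydrogenase itself, had 202, 252 and 233 reads in the NP libraries and 449, 483 and 479 in the LP libraries. The groups did not overlap, and the mean level was 75.9 ± 5.2 CPM in NP and 143 ± 0.45 CPM in LP (SD, n = 2). Pdhb thus rose by 0.90 on the log2 scale (standard error, SE, of 0.074, adjusted p = 5.2e-06). Dld, the lipoamide dehydrogenase that this complex shares with the 2-oxoglutarate dehydrogenase complex, rose by 0.56 on the log2 scale (adjusted p = 0.000295). Dlat, the acetyltransferase at the core of the complex, had only 18, 10 and 15 reads in the NP libraries and 25, 22 and 37 in the LP libraries. Its value of 0.78 (SE 0.29) did not pass the test (adjusted p = 0.0846), but did with the replicate number as a block (adjusted p = 0.0115) with the 6 libraries taken as separate samples (adjusted p = 0.049) and without NP replicate 1 (adjusted p = 0.026).

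Of the 3 kinases of the list that inactivate the complex, 2 were higher. Pdk3, a further such kinase outside the list, did not pass the test, with a log2 fold change of -0.3 (SE 0.15, adjusted p = 0.202). Pdk2, found in most tissues, had 196, 195 and 213 reads in the NP libraries and 426, 406 and 392 in the LP libraries, a log2 fold change of 0.89 (SE 0.086, adjusted p = 1.9e-05). Pdk4, the kinase induced by fasting in muscle and heart, had 78, 84 and 78 reads in the NP libraries and 188, 177 and 189 in the LP libraries. Every LP library was above every NP library in both kinases. Pdk4 rose from 27.2 ± 0.92 to 57.2 ± 4.0 CPM, a log2 fold change of 1.06 (SE 0.10, adjusted p = 2.16e-05). Pdk1, the kinase induced by hypoxia, had 29, 37 and 43 reads in the NP libraries and 41, 51 and 59 in the LP libraries. Its groups overlapped, with a log2 fold change of 0.31 (SE 0.21, adjusted p = 0.331).

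In the citrate cycle, 11 of 13 genes were higher, the other 2 did not pass the test, and the median log2 fold change was 0.76. The groups did not overlap in any of the 13, a pattern in which LP was above NP for 21.1% of all genes tested. Mdh2, the mitochondrial malate dehydrogenase, changed most. It had 456, 546 and 523 reads in the NP libraries and 1378, 1336 and 1407 in the LP libraries, or 169 ± 8.8 against 423 ± 23 CPM (SD, n = 2). Its log2 fold change was 1.32 (SE 0.077, adjusted p = 2.78e-07). Mdh1, the cytosolic form that works with it in the malate-aspartate shuttle, rose by 0.72 (SE 0.066, adjusted p = 1.17e-05).

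The other steps of the cycle had values from 0.08 to 1.14. Citrate synthase (Cs), which condenses acetyl-CoA with oxaloacetate, rose by 0.76 on the log2 scale (adjusted p = 1.97e-05). The fumarase gene Fh had 155, 167 and 169 reads in the NP libraries and 371, 407 and 398 in the LP libraries, a log2 fold change of 1.11 (SE 0.071, adjusted p = 6.32e-07). Ogdh, the decarboxylating subunit of the 2-oxoglutarate dehydrogenase complex, had 1297, 1337 and 1278 reads in the NP libraries and 2214, 2149 and 2183 in the LP libraries. It rose by 0.60 (SE 0.071, adjusted p = 9.63e-05), and Dlst, the succinyltransferase of the same complex, by 0.52 (adjusted p = 0.00038). Idh2, the NADP-dependent isocitrate dehydrogenase of mitochondria, rose by 1.00 (adjusted p = 4.21e-07).

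Several enzymes of the cycle are built from subunits of separate genes, whose values stand side by side here and were not tested against each other. Of the NAD-dependent isocitrate dehydrogenase, the catalytic subunit gene Idh3a had 147, 140 and 173 reads in the NP libraries and 381, 378 and 360 in the LP libraries, a log2 fold change of 1.14 (SE 0.082, adjusted p = 1.58e-06). Idh3b and Idh3g, its other subunits, had values of 0.81 (SE 0.080) and 0.42 (SE 0.074), both past the test. Succinate-CoA ligase is built from the common subunit of Suclg1 and either Sucla2, which makes the enzyme form ATP, or Suclg2, which makes it form GTP. Sucla2, known to be abundant in muscle and brain, had 229, 201 and 219 reads in the NP libraries and 451, 511 and 498 in the LP libraries, a log2 fold change of 0.99 (SE 0.085, adjusted p = 7.14e-06). Suclg2 had 323, 325 and 351 reads in the NP libraries and 383, 392 and 399 in the LP libraries, a log2 fold change of 0.08 (SE 0.070, adjusted p = 0.461). Suclg1 had a value of 0.21 (SE 0.072, adjusted p = 0.0679), which passed the test with the replicate block (adjusted p = 0.000336), with 6 separate libraries (adjusted p = 0.00897) and with genes of at least 50 reads on average (adjusted p = 0.0268).

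**Figure D2:**
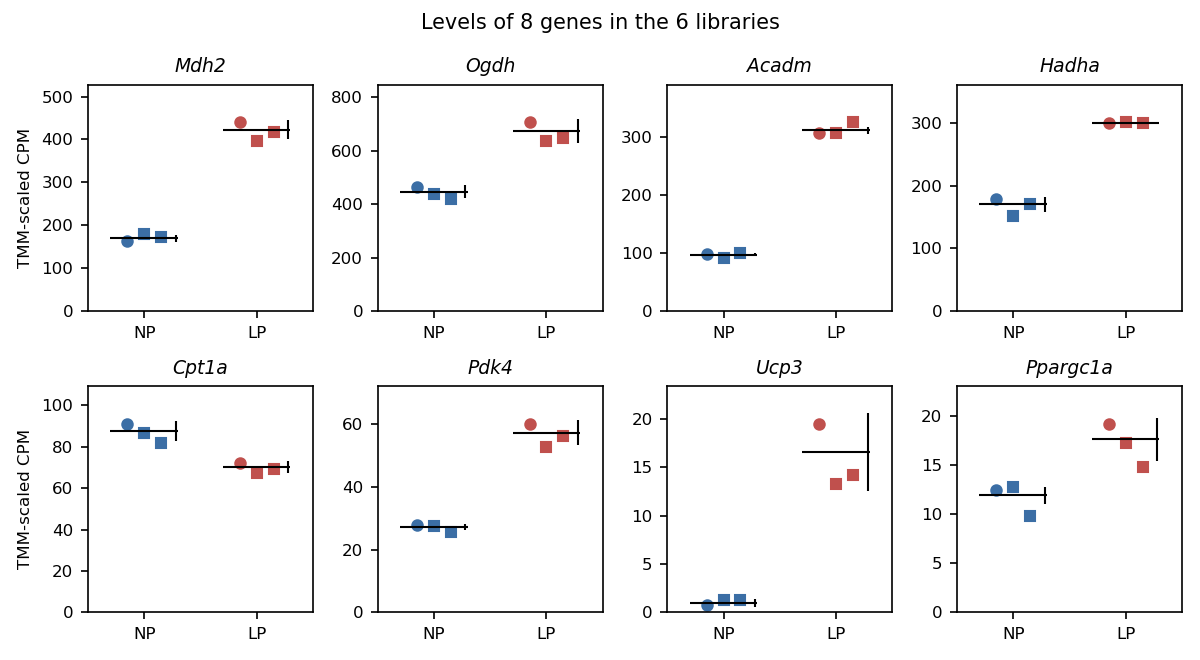
Level of 8 genes in each library, in CPM scaled by TMM, with NP in blue and LP in red; circles are replicate 1, squares replicates 2 and 3, and lines the mean and SD (n = 2). LP lies above NP in every panel but that of Cpt1a. Ucp3 passed the filter on low counts only through its LP libraries, which favours a higher level in LP.

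Of the genes that bring fatty acids into the cell and the mitochondrion, 5 had a row and 4 were tested, of which 3 were higher and 1 was lower. Cd36, a fatty acid receptor at the surface of muscle, fat and capillary cells, had 20, 15 and 13 reads in the NP libraries and 42, 41 and 48 in the LP libraries. The groups did not overlap, and the log2 fold change was 1.27 (SE 0.26, adjusted p = 0.00439, and 0.0681 with DESeq2). Beside it, the 7 white adipocyte markers with a row summed to between 170 and 175 CPM in NP and between 169 and 196 CPM in LP. The 6 endothelial markers summed to between 547 and 570 CPM in NP and between 430 and 457 CPM in LP, with 4 of them lower.

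At the carnitine step the genes differed in direction. Cpt1a, which makes the carnitine esters at the outer membrane, had 255, 265 and 249 reads in the NP libraries and 226, 227 and 233 in the LP libraries, or 87.7 ± 4.8 against 70.2 ± 2.8 CPM (SD, n = 2). Every LP library was below every NP library, and the log2 fold change was -0.32 (SE 0.077, adjusted p = 0.0121, and 0.283 with DESeq2). Slc25a20, the carrier that moves the esters across the inner membrane, had 111, 132 and 144 reads in the NP libraries and 205, 211 and 219 in the LP libraries. It rose by 0.57 (SE 0.090, adjusted p = 0.000831). Cpt2, which releases the fatty acid inside, rose by 0.97 (SE 0.11, adjusted p = 4.97e-05), from 76, 94 and 84 reads to 162, 209 and 186.

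Of the beta oxidation enzymes, 8 of the 10 tested were higher and the other 2 did not pass the test, with a median log2 fold change of 0.75. Acadm had 276, 276 and 302 reads in the NP libraries and 961, 1035 and 1096 in the LP libraries, or 96.7 ± 2.7 against 311 ± 6.6 CPM (SD, n = 2), a log2 fold change of 1.69 (SE 0.075, adjusted p = 2.57e-08). The acyl-CoA dehydrogenases for other chain lengths had smaller values, and the differences between them were not tested. Acads, for short chains, had 94, 124 and 117 reads in the NP libraries and 270, 266 and 265 in the LP libraries, a log2 fold change of 1.13 (SE 0.096, adjusted p = 6.4e-06). Acadvl, for very long chains, rose by 0.85 (SE 0.072) and Acadl, for long chains, by 0.67 (SE 0.071), on the log2 scale.

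The later steps of each round rose as well. Hadha and Hadhb, the subunits of the trifunctional protein that carries out these steps on long chains, had log2 fold changes of 0.83 (SE 0.077, adjusted p = 1.35e-05) and 1.06 (SE 0.070, adjusted p = 7.5e-07). Hadha had 499, 460 and 521 reads in the NP libraries and 940, 1015 and 1007 in the LP libraries. Hadhb had 268, 283 and 289 reads in the NP libraries and 616, 647 and 687 in the LP libraries. Neither gene overlapped between the groups. The hydroxyacyl-CoA dehydrogenase Hadh rose by 0.42 (adjusted p = 0.00215) and the thiolase Acaa2 by 0.67 (adjusted p = 4.03e-05). Eci1 and Decr1, auxiliary enzymes needed for unsaturated fatty acids, overlapped between the groups. Eci1 had a log2 fold change of 0.18 (SE 0.081, adjusted p = 0.152), and Decr1 of 0.08 (SE 0.088, adjusted p = 0.63).

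The electron transfer flavoprotein and its oxidoreductase, which pass the electrons to ubiquinone, were higher in 3 of 3 genes. Etfdh, the oxidoreductase, had 102, 141 and 103 reads in the NP libraries and 225, 233 and 267 in the LP libraries, a log2 fold change of 0.92 (SE 0.085, adjusted p = 1.39e-05). The flavoprotein subunits had smaller values. Etfa had 281, 222 and 259 reads in the NP libraries and 423, 407 and 413 in the LP libraries, a log2 fold change of 0.54 (SE 0.10, adjusted p = 0.00342). Etfb had 476, 478 and 501 reads in the NP libraries and 659, 662 and 602 in the LP libraries, a log2 fold change of 0.27 (SE 0.083, adjusted p = 0.0422). The call of Etfb was lost without LP replicate 1 (0.18, adjusted p = 0.258), without LP replicate 2 (adjusted p = 0.0996), without NP replicate 2 (adjusted p = 0.0532), with library totals alone (adjusted p = 0.0961) and with DESeq2 (adjusted p = 0.135).

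The genes known to be enriched in muscle were then set against the broadly expressed ones. Of the 5 genes taken as muscle-enriched (Cpt1b, Fabp3, Ucp3, Pdk4 and Ppargc1a), 4 had a row and 3 were tested. Of these 3, 2 were higher, with log2 fold changes of 3.81 for Ucp3 and 1.06 for Pdk4, and Ppargc1a at 0.55 did not pass. Of the other 35 genes, 28 were higher, with a median of 0.76 and values from -0.32 to 1.69. Pdk4 and Ppargc1a lay within this range. Ucp3 lay above it, but it passed the filter on low counts only through its LP libraries, which favours a high value. The value of Ucp3 is therefore not read as a difference between the classes. With only 3 muscle-enriched genes tested, no test between the classes was made.

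Ucp3 had 2, 4 and 4 reads in the NP libraries and 61, 45 and 48 in the LP libraries, or 1.01 ± 0.42 against 16.6 ± 4.0 CPM (SD, n = 2). Its NP level was close to that of 3 reads, so the fold of 14.0 (log2 3.81, SE 0.37, adjusted p = 1.93e-05) rests on few reads. Ppargc1a, the coactivator that drives formation of mitochondria, had 35, 39 and 30 reads in the NP libraries and 60, 58 and 50 in the LP libraries. The groups did not overlap, with a log2 fold change of 0.55 (SE 0.19, adjusted p = 0.067). Its call was made with the replicate block (adjusted p = 0.0138), with 6 separate libraries (adjusted p = 0.0309) and without LP replicate 3 (adjusted p = 0.0463).

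Cpt1b, the carnitine palmitoyltransferase of muscle, was barely measured. It had 1, 2 and 2 reads in the NP libraries and 8, 12 and 3 in the LP libraries, or 5 against 23 reads in all, a 3.94-fold ratio after division by the library totals (exact 95% interval from 1.47 to 13.3, for counting error only). Without the filter on low counts its log2 fold change was 2.01 (SE 0.66, adjusted p = 0.0421). That call was lost with DESeq2 (adjusted p = 0.492) and without any single library other than LP replicate 3, with adjusted p-values of 0.108, 0.0666 and 0.0662 without NP replicates 1, 2 and 3, and of 0.132 and 0.27 without LP replicates 1 and 2.

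To compare related genes without the scaling of libraries, the log2 ratio of the reads of 2 genes was taken within each library for 5 pairs. Sucla2 over Suclg2 was -0.50, -0.69 and -0.68 in the NP libraries and 0.24, 0.38 and 0.32 in the LP libraries, a difference of 0.93. Cpt1b over Cpt1a was -7.41, -6.73 and -6.64 in the NP libraries and -4.74, -4.19 and -6.06 in the LP libraries, a difference of 1.93 that rests on the few reads of Cpt1b. Ucp3 over its broadly expressed relative Ucp2, which had 1238, 1198 and 1159 reads in the NP libraries and 1142, 1240 and 1212 in the LP libraries, differed by 3.8. Since Ucp3 passed the filter on low counts only through its LP libraries, a positive difference was favoured and is not read as a result. Ucp2 itself had a log2 fold change of -0.18 (adjusted p = 0.115), called lower with the replicate block (adjusted p = 0.000123) and with library totals alone (adjusted p = 0.0215). In each of these pairs every LP ratio was above every NP ratio. The ratio of Pdk4 to Pdk1 differed by 0.73, again with no overlap. That of Pdk4 to Pdk2 differed by 0.18, and its highest NP ratio (-1.21) lay only just below its lowest LP ratio (-1.2). By the exact permutation test (two-sided) over the 6 libraries, every pair had p = 0.1, also after adjustment over the 5 pairs, which is the smallest value that 3 against 3 libraries allow. With replicates 2 and 3 counted once the smallest is 0.33, so the design cannot reach 0.05 for these ratios.

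**Figure D3:**
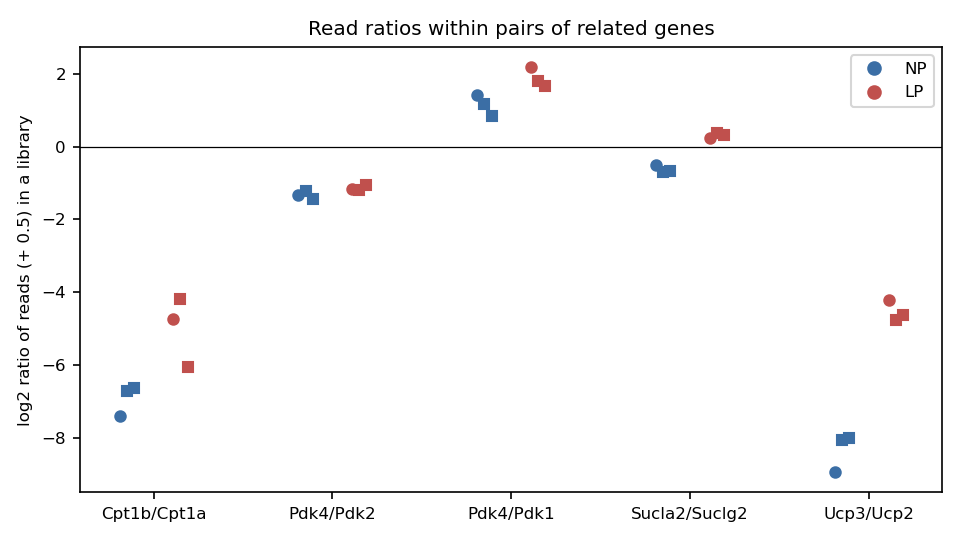
Log2 ratio of the reads (each + 0.5) of 2 related genes within a library, for 5 pairs, with NP in blue, LP in red, circles for replicate 1 and squares for replicates 2 and 3; levels are not scaled by gene length, so the height of a pair has no meaning and only the shift does. The shift is 0.93 for Sucla2 over Suclg2 and 0.18 for Pdk4 over Pdk2. It is 3.8 for Ucp3 over Ucp2, but Ucp3 passed the filter on low counts only through its LP libraries.

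Of 65 other genes of these pathways, 62 were tested, 31 were higher and 2 were lower in LP, with a median log2 fold change of 0.36. The 12 higher by more than 2-fold included Pdpr, Me3, Acsl1, Acsl6, Lpl, Crat, Acacb, Oxct1, Bdh1, Ppara and Ppargc1b. Crat, the carnitine acetyltransferase that buffers acetyl-CoA in muscle, had 124, 136 and 165 reads in the NP libraries and 609, 633 and 676 in the LP libraries, a log2 fold change of 2.03 (SE 0.078, adjusted p = 6.65e-09). The succinate dehydrogenase genes rose by 0.79 for Sdha, 0.93 for Sdhb, 0.46 for Sdhc and 0.94 for Sdhd, and all 4 passed the test.

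Among the enzymes that activate long-chain fatty acids, Acsl1 and Acsl6 rose and the others did not pass. Acsl1, the main form of muscle, liver and fat, had 254, 266 and 300 reads in the NP libraries and 706, 715 and 704 in the LP libraries, a log2 fold change of 1.24 (SE 0.076, adjusted p = 4.03e-07). Acsl6 had 21, 22 and 14 reads in the NP libraries and 86, 87 and 83 in the LP libraries, a log2 fold change of 2.01 (SE 0.19, adjusted p = 1.9e-05). Acsl3, Acsl4 and Acsl5 had values of -0.06, -0.07 and -0.15, with adjusted p-values of 0.91, 0.576 and 0.156. The difference between the forms was not tested.

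Lpl, the lipase that frees fatty acids in capillaries, rose by 1.38 (adjusted p = 2.14e-07). Acacb, whose product malonyl-CoA restrains Cpt1 at the outer membrane, rose by 1.35 (SE 0.099, adjusted p = 1.88e-06), and Acaca, the form of fatty acid synthesis, by 0.43 (adjusted p = 0.00343, and 0.0804 with DESeq2). Pdpr, the regulatory subunit of a pyruvate dehydrogenase phosphatase, rose by 1.37 (adjusted p = 5.07e-05), and Me3, a mitochondrial malic enzyme, by 1.31 (adjusted p = 9.28e-05). The catalytic phosphatase genes Pdp1 and Pdp2 did not pass the test, with values of -0.09 (adjusted p = 0.668) and 0.32 (adjusted p = 0.448). Of the regulators, Ppargc1b had 9, 16 and 13 reads in the NP libraries and 45, 45 and 45 in the LP libraries, a log2 fold change of 1.69 (adjusted p = 0.000667). Ppara rose by 1.65 (adjusted p = 0.0187) on 6, 3 and 3 against 13, 18 and 12 reads, a call lost with DESeq2 (adjusted p = 0.351), without LP replicate 1 (adjusted p = 0.0643) and without LP replicate 2 (adjusted p = 0.0547). The nuclear receptor gene Esrra rose by 0.51 (adjusted p = 0.000344), and Tfam, which packs mitochondrial DNA, had a value of 0.02 (adjusted p = 0.955).

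**Figure D4:**
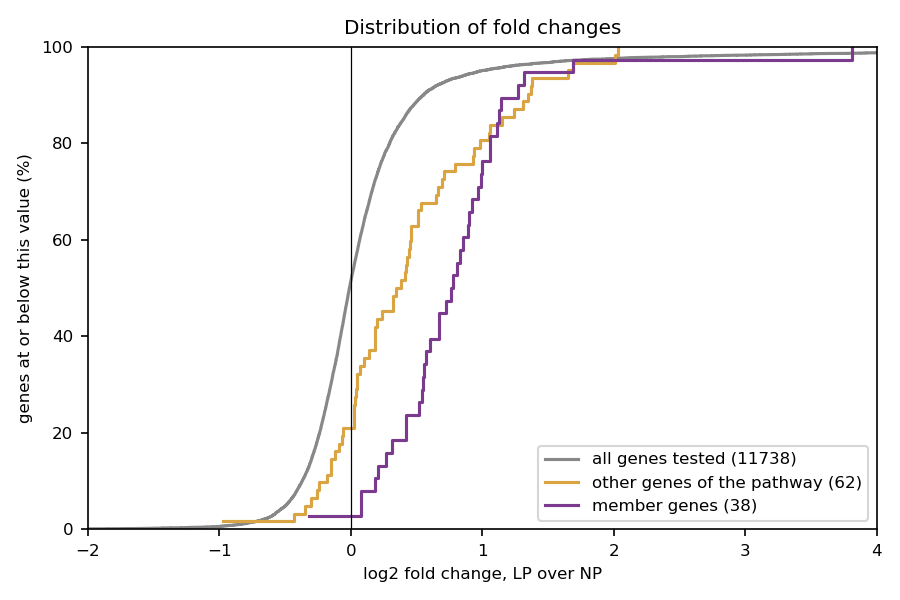
Cumulative share of genes (%) at or below each log2 fold change of LP over NP, for the 38 genes of the list, 62 other genes of the pathways and all 11738 genes tested; the axis is cut at 4, beyond which some genes of the last set lie. The medians are 0.77, 0.36 and -0.0111.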

How the data were processed

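The RNA-seq libraries of NP and LP thyroids were made from TRIzol RNA with the TruSeq kit. TopHat 1.4.0 aligned the reads to rn5, and HTSeq-count assigned them to Ensembl gene models. The values deposited by the authors are these raw counts, 1 table per library. How 1 transcript was kept per symbol, and whether counting used strand, is not given in the sources used here.

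The tools used here were edgeR 4.0.16 with limma 3.58.1, and DESeq2 1.42.0, under R 4.3.3. Libraries were scaled by TMM, genes were filtered by filterByExpr over the 6 libraries, and LP was compared with NP by the quasi-likelihood test, with Benjamini-Hochberg adjustment over all genes tested and a threshold of 0.05. The SE of a log2 fold change is its size over the square root of F. CPM are TMM-scaled, except in sums over markers, which use library totals. Symbols were matched without regard to case (Idh3b). Ratios had 0.5 read added to each count. No block was used in the main comparison, since the study names no pairing. Deviations of same-numbered libraries correlated at 0.493, 0.223 and 0.192 for numbers 1, 2 and 3, but NP replicate 2 with LP replicate 3 gave 0.215 as well, so the numbers separate only replicate 1. The block result is given where it changes a call. The other settings tried were 6 separate libraries, each library left out, no filter, a mean of at least 50 reads, other scalings and DESeq2. Given in full were muscle-enriched genes, genes of the pairs, and for each role the 3 largest calls and the gene with most reads; of the other genes of the pathways, those called with a fold above 2 were named. Genes named beside these (other subunits and forms, Sdha to Sdhd, Esrra, Tfam and peroxisomal genes) were picked after their values were seen. The genes and lists were chosen with earlier results of these data known. The steps were tested on simulated data. A few genes of the pathways are not reported here.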

Additional observations from a re-analysis of the deposited data

How the results depend on the processing

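The number of genes of the list called higher (30) lay between 28 and 33 under all settings run: 33 with 6 separate libraries and with either replicate block, 31 with no filter, 29 with a mean of at least 50 reads or library totals alone, 28 with DESeq2, and between 29 and 31 with each library left out. The number called lower was 1, and 0 with DESeq2. The number higher by more than 2-fold (10) lay between 7, with library totals alone, and 11. The median of all genes of the list (0.77) was 0.78 with 6 separate libraries and with the replicate block of numbers 1, 2 and 3, 0.70 with library totals alone, 0.75 with DESeq2, 0.72 in replicate 1 alone, 0.76 in replicates 2 and 3 alone, and between 0.74 and 0.79 with each library left out. The median of the broadly expressed genes (0.76) was 0.77 with 6 separate libraries and with either replicate block, 0.75 with no filter, 0.69 with library totals alone, 0.73 with DESeq2, 0.72 in replicate 1 alone and in replicates 2 and 3 alone, and between 0.72 and 0.78 with each library left out. That of the muscle-enriched genes (1.06) was 1.53 with no filter, where Cpt1b enters. Of Ucp3 and Ppargc1a, the number called (1) was 2 with 6 separate libraries and with either replicate block, 0 with a mean of at least 50 reads, where neither is tested, and between 1 and 2 with each library left out. The number of other genes of the pathways called lower (2) was 5 with either replicate block and with library totals alone, 1 with a mean of at least 50 reads, 0 with DESeq2, and between 1 and 3 with each library left out. The cause of these shifts was not tested beyond what is named. Of 814 values of single genes under other settings, 774 kept their side of the threshold, 22 lost it, 18 gained it and 0 changed sign. Over all genes, the call count of 2507 became 3172 with 6 separate libraries, 3739 with the replicate block of summed replicates, 1163 with DESeq2 and 1670 without LP replicate 1, and lay between 2240 and 2433 without each of the other libraries. The comparisons of replicate 1 alone and of replicates 2 and 3 alone, the count over genes reaching the filter in both groups and the marker sums without Tg or Des were chosen after the data were examined. The replicate block lowered the biological coefficient of variation from 0.078 to 0.0162. Among the genes of the list tested, it changed the calls of Dlat, Suclg1 and Ppargc1a and no other. Low reads limit Cpt1b, Dlat, Cd36, Ucp3 and Ppara.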

Other observations

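The ketone body genes Oxct1, Bdh1 and Acat1 were higher in LP. Oxct1, which activates acetoacetate for use outside the liver, had 360, 382 and 362 reads in the NP libraries and 826, 849 and 877 in the LP libraries, a log2 fold change of 1.05 (SE 0.075, adjusted p = 1.53e-06). Bdh1 had 21, 27 and 18 reads in the NP libraries and 52, 48 and 52 in the LP libraries and rose by 1.06 (SE 0.21, adjusted p = 0.00392, and 0.0731 with DESeq2), and Acat1, the thiolase of acetoacetyl-CoA, rose by 0.69 (adjusted p = 2.45e-05).

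Of the peroxisomal fatty acid oxidation genes, Hsd17b4, Acaa1a and Ehhadh had log2 fold changes of -0.12, 0.10 and 0.14, none past the test. Crot and Acad11, also known from peroxisomes, did pass, in opposite directions. Crot was higher (0.32, adjusted p = 0.0495, and 0.626 with DESeq2). Acad11 was lower (-0.35, adjusted p = 0.00514, and 0.136 with DESeq2). The difference between these and the mitochondrial genes was not tested. The 5 brown adipocyte markers with a row summed to between 6.41 and 10.9 CPM in NP and between 6.82 and 11.3 CPM in LP. Of these, 2 were tested. Ppara was called higher, with the limits given above, and Cidea did not pass (-0.58, adjusted p = 0.395). The others were below the filter on low counts and differed in direction. Ucp1 had 12, 9 and 9 reads in the NP libraries and 2, 4 and 4 in the LP libraries. Zic1 had 0, 0 and 0 reads in the NP libraries and 3, 7 and 6 in the LP libraries, and Dio2 at most 4 reads in any library. The 8 macrophage markers summed to between 130 and 152 CPM in NP and between 141 and 159 CPM in LP.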
